A study of Mus musculus with 6 samples.

Results

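The replication-dependent histone genes were examined in mouse morulae in which the zinc finger transcription factor YY1 had been depleted. The genes were chosen by symbol (the H1f1 to H1f6, H2ac, H2bc, H3c and H4c series and the older Hist names, without symbols marked as pseudogenes) and by a mean level of at least 1 TPM (transcripts per 1000000) over the 6 libraries. This left 64 of 55364 listed genes, namely 6 H1, 19 H2A, 16 H2B, 11 H3 and 12 H4 genes. The mean level was used for the choice and is therefore given as a description only. The difference between the groups was not used. RNA was taken from BDF1 x BDF1 embryos made by in vitro fertilization, in which siRNA against Yy1 or a control siRNA was injected into the zygote. Morulae were collected 64 h after insemination, and each group has 3 libraries of 10 pooled morulae of unrecorded sex. All embryos of both groups had gone through fertilization in vitro, injection and culture in KSOM medium. The samples are called control KD and Yy1 KD. Nothing in the sources says whether the 3 libraries of a group came from separate injection sessions, so p-values measure only the spread between these libraries. The siRNA was given to the zygote, so early and late consequences cannot be told apart.

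A nucleosome wraps DNA around an octamer of the core histones H2A, H2B, H3 and H4, and the linker histone H1 binds where the DNA enters and leaves it. Cells make most of this protein during S phase from clusters of short intronless genes, whose messages end in a conserved stem-loop in place of a poly(A) tail. The stem-loop is bound by SLBP and directs processing, translation and decay of the message, and transcription of the clusters depends on NPAT, a substrate of cyclin E and CDK2. Cleavage-stage embryos divide quickly and need new histones for each round of DNA replication. The kit used here primes total RNA at random, so that messages without a poly(A) tail can be read.

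All members lie on chromosome 13 (56 genes) or chromosome 3 (8 genes) of the mm10 assembly. A stem-loop of 16 bases was found by its pattern in the annotated transcript of 42 members, in 8 versions. They are shown because the stem differs between H4 and the other types. The 4 bases of the loop are in capitals, and the gene named is the first along the genome that holds the version.

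H3c15: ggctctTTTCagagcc
H2bc12: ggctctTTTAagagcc
H2ac20: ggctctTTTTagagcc
H3c8: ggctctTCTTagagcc
Hist1h4m: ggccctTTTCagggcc
H4c14: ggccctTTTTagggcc
H4c11: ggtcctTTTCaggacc
H4c1: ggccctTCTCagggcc

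The first version was the most frequent, with 23 members of the H1, H2A, H2B and H3 types, and the second was held by 6 members of the H1, H2B and H3 types. The 11 H4 genes with a stem-loop used only the last 4 versions, which were found in no other type. Of the 22 members without the pattern, 11 are annotated by their coding sequence alone, from start to stop codon, so that the stem-loop would lie outside the annotated transcript. In the 42 others, the annotated transcript went on for 3 to 4884 bases after the stem-loop (median 54). For 15 of them it went on for more than 300 bases, and TPM, which divides by the annotated length, is then low for the reads counted. H1f3 is the extreme case, annotated over 7425 bases, with 105 TPM from 3462 to 8885 read pairs per library.

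The 250 bases before the start of transcription are shown for H2ac1 and H2ac21, the members that passed the test between the groups, for H2ac20, the neighbour of H2ac21, and for H4c8, which holds a match to the YY1 consensus. They come from RefSeq (GRCm38.p6) and read 5′ to 3′ on the strand of the gene. Capitals mark matches on either strand to 5 motifs. The TATA box was searched as TATAAA, and the CCAAT box by the letters of its name. The octamer, a site of OCT factors, was searched as ATTTGCAT. For the AC box, which is known from H1 promoters, the letters were AAACACA. The consensus of YY1 was searched as GCCATNTT, with any base at the N. None of these motifs contains another. The windows are chr13:23934187-23934436 (plus strand) for H2ac1, chr3:96219635-96219884 (plus strand) for H2ac21, chr3:96220881-96221130 (minus strand) for H2ac20 and chr13:23530794-23531043 (plus strand) for H4c8.

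H2ac1: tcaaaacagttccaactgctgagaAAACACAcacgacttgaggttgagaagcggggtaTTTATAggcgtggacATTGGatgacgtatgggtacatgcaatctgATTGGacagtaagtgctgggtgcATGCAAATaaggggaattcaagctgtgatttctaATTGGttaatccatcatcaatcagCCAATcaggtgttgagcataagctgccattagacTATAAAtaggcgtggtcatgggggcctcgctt
H2ac21: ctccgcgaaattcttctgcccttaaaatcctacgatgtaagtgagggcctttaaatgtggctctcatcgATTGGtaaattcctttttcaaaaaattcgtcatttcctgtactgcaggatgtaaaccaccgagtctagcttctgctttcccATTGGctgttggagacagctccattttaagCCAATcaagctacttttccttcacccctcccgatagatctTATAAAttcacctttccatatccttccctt
H2ac20: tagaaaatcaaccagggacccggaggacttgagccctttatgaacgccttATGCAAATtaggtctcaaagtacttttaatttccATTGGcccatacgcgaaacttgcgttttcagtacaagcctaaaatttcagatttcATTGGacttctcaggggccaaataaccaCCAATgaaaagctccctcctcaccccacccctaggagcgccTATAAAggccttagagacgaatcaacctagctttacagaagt
H4c8: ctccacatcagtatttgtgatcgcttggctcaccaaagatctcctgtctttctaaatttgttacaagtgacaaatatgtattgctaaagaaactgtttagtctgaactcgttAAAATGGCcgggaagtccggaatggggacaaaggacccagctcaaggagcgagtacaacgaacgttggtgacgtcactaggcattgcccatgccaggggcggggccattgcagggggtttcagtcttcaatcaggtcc

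The start of H2bc1 lies 281 bases from that of H2ac1 on the other strand, so that the first window covers most of what separates both genes. Over the 57 members with a RefSeq promoter, searched from 250 bases before to 50 after the start, the TATA box was found in 59.65%, against 14.16% of all 27025 promoters. The CCAAT box was found in 85.96% against 37.92%, in every H1, H2A, H2B and H3 promoter but in only 3 of 11 H4 promoters. The octamer, a known element of H2B promoters, was found in 12 promoters, 6 of H2A and 6 of H2B genes, that is in 21.05% against 1.754%. The facing pairs H2ac1 and H2bc1, H2ac8 and H2bc8, and H2ac12 and H2bc12 share the same octamer, which was counted for both genes. Facing pairs also share TATA and CCAAT boxes, since matches were counted on either strand and at any place in the window. The only TATA match of H2bc7, H2bc12, H2bc15 and Hist1h2bp was also counted for the facing H2A gene. The AC box was found in 5 of 6 H1 promoters, against 7.138% of all. The YY1 consensus was found in 6 of 57 members, which is 10.53%, against 6.228% of all promoters. The 6 were H3c13, H3c10, H4c8, H2bc9 and the facing pair H2ac8 and H2bc8, which share the match. H2ac1 and H2ac21 held none in this window. A match is a run of letters and does not show binding.

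Yy1 itself, the targeted gene, was at 96.0, 100.2 and 89.8 TPM in control KD and at 8.73, 8.90 and 8.32 TPM in Yy1 KD. The Yy1 KD level was 9.07% of that in control KD (log2 fold change -3.32 ± 0.09 SE, limma adjusted p = 6.71e-05). The libraries held 11793509 to 24417789 read pairs on genes as recovered from the TPM. Of 11 morula and blastocyst lineage markers all were detected and 1, Tfap2c, fell (log2 fold change -0.54 ± 0.08 SE, adjusted p = 0.0174). The 9 cumulus markers summed to 0.650 to 1.11 TPM in control KD and 0.872 to 2.60 TPM in Yy1 KD, with Has2, Ptx3 and Tnfaip6 at 0 in every library. The 6 sperm markers summed to 0.318 to 0.980 and 0.111 to 2.84 TPM, and the 7 oocyte markers to 48.8 to 69.5 and 53.7 to 67.7 TPM.

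Histone messages were abundant in the morulae of both groups. The 64 members together made up 1.55% to 2.05% of all TPM in a library, and 42 of them had a mean above 100 TPM. By type the sums over the 6 libraries divided into 34.6% for H2B, 21.03% for H2A, 17.7% for H1, 16.4% for H4 and 10.2% for H3. With the pairs that predicted short genes take from H2A given back, as described with the H2A genes, the mean H2A sum was 6573 TPM. As deposited it was 3754 TPM, and that of H2B was 6171 TPM. Pairs that other annotated genes take from H2B members, such as those over H2bc18, were not given back. The order of these types is therefore uncertain. The shares are on the TPM scale, per annotated length, and count no read that maps to several places. Of the 64 members, 50 share at least 1 window of 150 bases, the read length, with another annotated gene, and for 21 of them over 50% of the transcript is shared. In 24 members another annotated gene overlaps, and the pairs there were split. The levels of all these genes are therefore uncertain, and for the most similar copies the level may stand for reads lost or moved between copies.

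**Figure D1:**
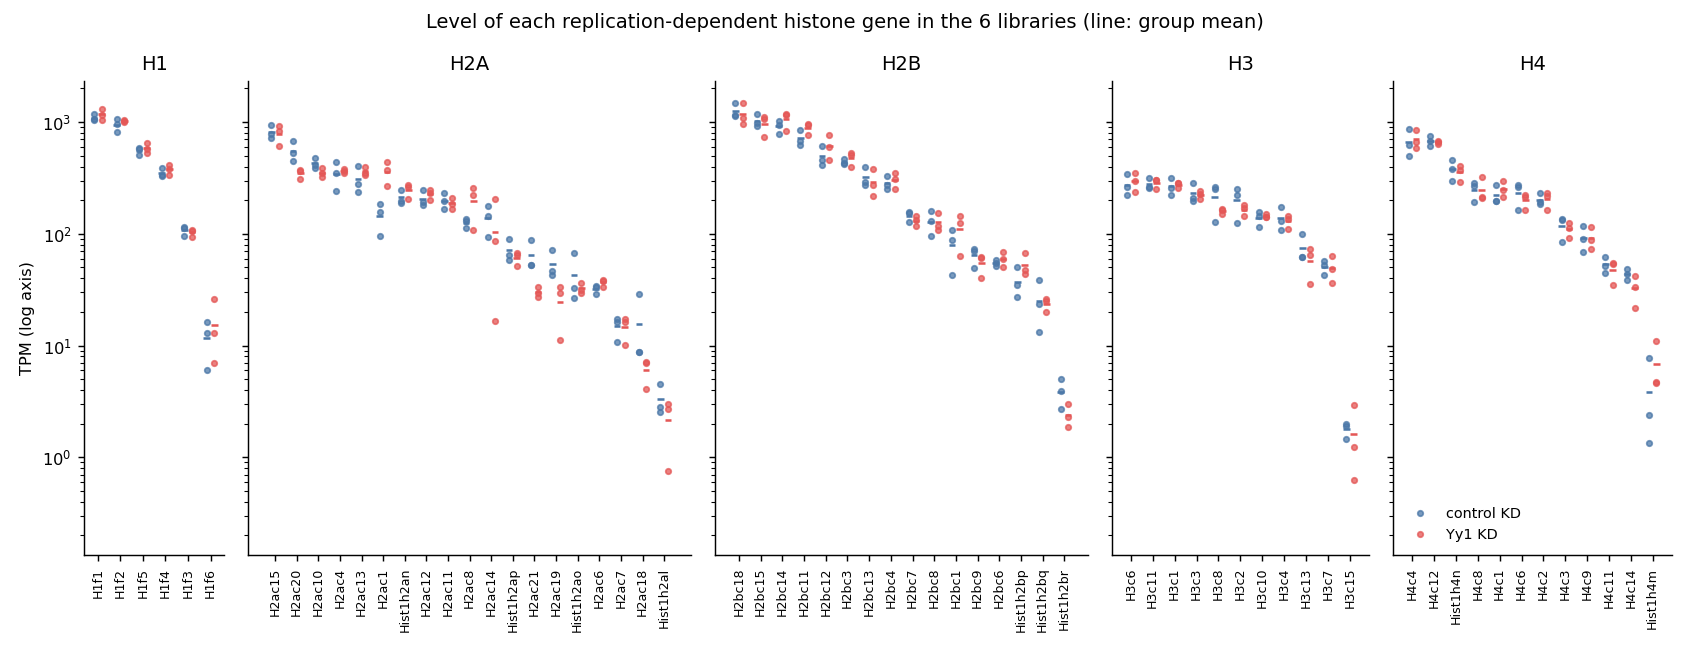
TPM of each of the 64 members on a log axis, by histone type and in order of mean level, with 3 control KD libraries in blue, 3 Yy1 KD libraries in red and a line at each group mean. The 42 genes above 100 TPM include members of all types, and the points of the groups overlap for most genes.

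The levels within a type spanned a wide range. Among linker histones, H1f1 (mean 1131 TPM) and H1f2 (986 TPM) were highest, H1f5 followed at 568 TPM, and the testis form H1f6 was lowest at 13.6 TPM. Among H2A genes, H2ac15 (799 TPM), H2ac20 (450.1 TPM) and H2ac10 (390.0 TPM) led, and among H2B genes H2bc18 (1218 TPM), H2bc15 (1000.1 TPM) and H2bc14 (987 TPM). The H3 genes were more even at the top, with H3c6 at 285 TPM, H3c11 at 282 TPM and H3c1 at 272 TPM, while H4c4 (681 TPM), H4c12 (672 TPM) and Hist1h4n (368 TPM) led the H4 genes. H3c15 (1.70 TPM), Hist1h2al (2.74 TPM) and Hist1h2br (3.13 TPM) lay just above the mean of 1 TPM that the choice required, and H3c14 (0.781 TPM) and H2bc21 (0.710 TPM) just below it. No other symbol of these series fell below it.

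The comparison of Yy1 KD with control KD asked which genes depend on YY1 at this stage. All 64 members were tested, and 2 passed an adjusted p of 0.05, H2ac1 as higher and H2ac21 as lower in Yy1 KD (limma on log2(TPM + 1), Benjamini-Hochberg over 17353 genes). That is 3.13% of the members, beside 6.11% of all genes tested, of which 1.92% were higher and 4.2% lower. The members' median log2 fold change was -0.02, and that of all genes tested was also -0.02. An unadjusted p under 0.05 was reached by 5 members (7.81%), beside 23.8% of all genes. Of the members, 30 had a positive and 34 a negative difference. The groups did not overlap, with Yy1 KD higher, for 1 member (1.56%, beside 12.9% of all genes) and, with Yy1 KD lower, for 5 members (7.81%, beside 17.2%). For 47 members the 95% confidence interval of the difference lay within a 2-fold change in either direction, and for 32 within 1.5-fold, so that larger changes of those genes are outside the interval. For the other 17, among them H2ac1 and H2ac21, whose own estimates are beyond 2-fold, the interval reached past a 2-fold change. With 3 libraries against 3, the two-sided exact permutation test of a single gene cannot go below 0.1.

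**Figure D2:**
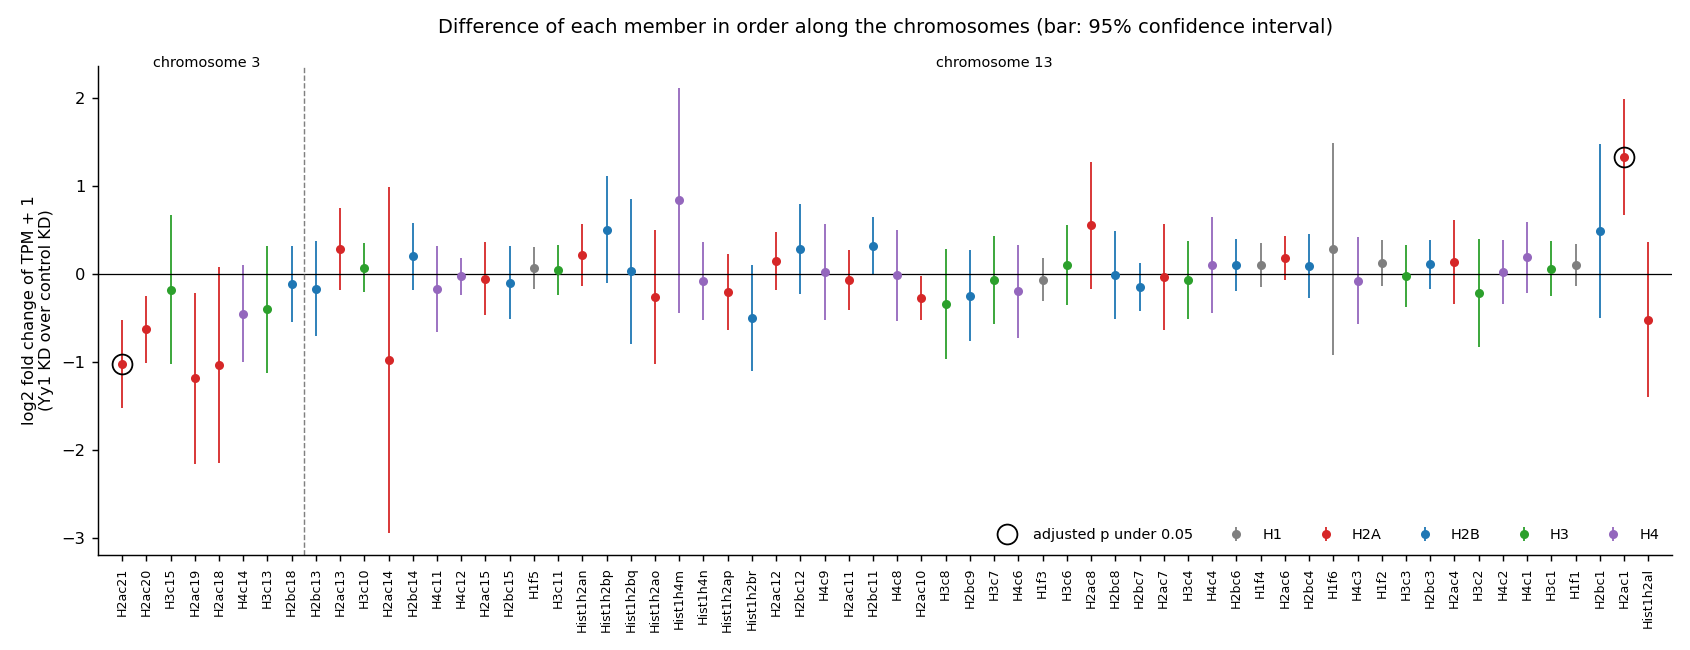
Log2 fold change of each member (Yy1 KD over control KD, log2(TPM + 1) scale) with its 95% confidence interval, in order along chromosomes 3 and 13, coloured by histone type, with a black ring at an adjusted p under 0.05. The rings are at H2ac21 (-1.02) and H2ac1 (1.32), and all 8 genes of chromosome 3 lie below 0.

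H2ac1 and H2bc1 encode TH2A and TH2B, variants first known from the testis and also stored in the egg. H2ac1 (chr13:23934462-23934851, plus strand, a single exon annotated by its coding sequence) stood at 157, 184 and 95.4 TPM in control KD and at 267, 441 and 374 TPM in Yy1 KD. All Yy1 KD libraries were above all control KD libraries, and the group means were 145 ± 45.4 and 360.3 ± 87.7 TPM (SD, n = 3; exact permutation p = 0.1). H2ac1 rose by a log2 fold change of 1.32 ± 0.28 SE (95% confidence interval 0.66 to 1.98, adjusted p = 0.0435). It shares no 150-base window with another annotated gene, but the short gene Gm44344 is annotated antisense inside it and held 38.2% to 41.8% of the pairs of both, so that the level of H2ac1 was 1.67 times as high with these given back. Gm44344 stood at 182 to 366 TPM in control KD and at 578 to 822 TPM in Yy1 KD, with a log2 fold change of 1.34 (adjusted p = 0.0410). The call of H2ac1 was lost when any 1 of the 6 libraries was left out, with adjusted p between 0.0575 and 0.127, while the log2 fold change stayed between 1.05 and 1.53. It held in 9 of 12 other settings, and no filter on low values and no variance trend were among those that ended it.

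H2bc1, which faces H2ac1 across the window shown above, was at 88.8, 108 and 43.0 TPM in control KD and at 63.6, 125 and 145 TPM in Yy1 KD. The groups overlapped, and the log2 fold change of 0.49 ± 0.42 SE did not pass the test (95% confidence interval -0.51 to 1.48, adjusted p = 0.534). Control KD replicate 3 was the lowest library for both genes.

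H2ac21 (chr3:96219865-96220308, plus strand, a single exon) encodes a canonical H2A of the smaller cluster. It was at 52.8, 87.5 and 52.15 TPM in control KD and at 33.4, 27.4 and 29.8 TPM in Yy1 KD. All Yy1 KD libraries were below all control KD libraries, with means of 64.2 ± 20.3 and 30.2 ± 3.04 TPM (SD, n = 3; exact permutation p = 0.1), that is 47.0% of the control KD level. H2ac21 fell by 1.02 on the log2 scale (SE 0.21, 95% confidence interval -1.52 to -0.53, adjusted p = 0.0405). It shares no 150-base window with another gene, but Gm15444 is annotated antisense over it, and without strand in the counting the reads of both cannot be told apart. Gm15444 stood at 59.3 to 99.7 TPM in control KD and at 30.4 to 38.2 TPM in Yy1 KD, with a log2 fold change of -1.04 (adjusted p = 0.0397). The call of H2ac21 was lost when any 1 library was left out, with adjusted p between 0.0518 and 0.125, while the log2 fold change stayed between -1.15 and -0.78. It held in 8 of 12 other settings, and no filter, no variance trend and quantile normalization were among those that ended it.

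The other H2A genes of chromosome 3 lay on the same side as H2ac21 and did not pass the test. H2ac20, whose promoter holds an octamer in the window shown above, was at 444, 679 and 525 TPM in control KD and at 311, 366 and 375 TPM in Yy1 KD (log2 fold change -0.63 ± 0.16 SE, adjusted p = 0.0709). H2ac19 was at 46.3, 71.9 and 42.9 TPM and at 29.6, 11.2 and 33.3 TPM (log2 fold change -1.19 ± 0.41 SE, adjusted p = 0.139). H2ac18, named after its values were seen, was at 8.71, 29.2 and 8.72 TPM and at 4.09, 7.14 and 6.97 TPM (log2 fold change -1.04 ± 0.47 SE, adjusted p = 0.237). In these 3 genes too, every Yy1 KD library lay below every control KD library. H2ac19 and H2ac18 are near-identical copies, with 100% and 95.4% of their windows found in another gene, so their separate values are uncertain.

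**Figure D3:**
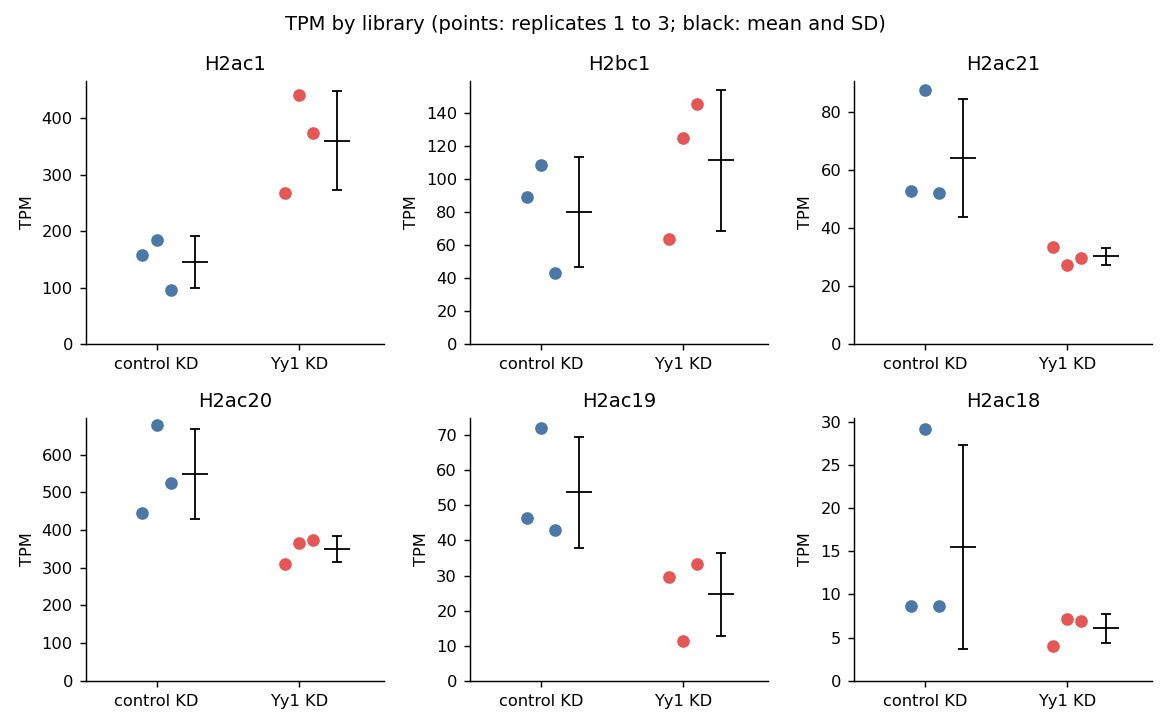
TPM by library for H2ac1, its facing neighbour H2bc1 and the 4 H2A genes of chromosome 3, each on its own axis from 0, with the mean and SD of each group in black (n = 3). The groups are apart for all of them except H2bc1, and the highest control KD library of the chromosome 3 genes is replicate 2.

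Summed over these 4 genes, the level was 552, 868 and 629 TPM in control KD and 378, 412 and 445 TPM in Yy1 KD. The 15 H2A genes of chromosome 13 summed to 2873, 3662 and 2700 TPM and to 2880, 3559 and 3567 TPM, with overlapping groups. All 8 members of chromosome 3 had a negative log2 fold change, from -1.19 to -0.12 (median -0.54), while of the 56 on chromosome 13, 26 were negative and 30 positive (median 0.02). For chromosome 3 the groups did not overlap, with Yy1 KD lower, for 4 of 8 members, and for chromosome 13 for 1 of 56, beside 17.2% of all genes. The 4 include the near-identical H2ac18 and H2ac19. The split by chromosome was made after the values were seen and was not tested. The highest of the chromosome 3 members, H2bc18, was at 1168, 1494 and 1126 TPM and at 961, 1473 and 1088 TPM, with overlapping groups (log2 fold change -0.12 ± 0.18 SE, adjusted p = 0.746). The noncoding gene Gm42743 is annotated over H2bc18 on the same strand, at 241 to 373 TPM, and Gm20628 antisense, at 119.5 to 192.5 TPM. Pairs that touch them and H2bc18 were split between the genes, which lowers the level of H2bc18. Of the remaining H3 and H4 members there, H3c13 had a log2 fold change of -0.40 ± 0.30 SE (adjusted p = 0.475), H4c14 of -0.45 ± 0.23 SE (adjusted p = 0.296) and H3c15 of -0.18 ± 0.36 SE (adjusted p = 0.805).

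The H2A genes were the most varied type, with log2 fold changes from -1.19 to 1.32. The 5 members with an unadjusted p under 0.05 were all among these 19 genes, which is 26.3% of them, close to the 23.8% of all genes tested. H2ac10 was lower in every Yy1 KD library, at 412, 477 and 392 TPM against 348, 387 and 324 TPM, but did not pass (log2 fold change -0.27 ± 0.10 SE, adjusted p = 0.169). H2ac15, the highest H2A gene, was at 716, 939 and 779 TPM and at 606, 918 and 835 TPM (log2 fold change -0.06 ± 0.17 SE, adjusted p = 0.880). H2ac14, annotated as a pseudogene and named after its values were seen, ranged from 16.8 to 207 TPM among the Yy1 KD libraries alone. H2ac8, named for the same reason, was at 112, 129 and 136 TPM in control KD and at 220.4, 109 and 259 TPM in Yy1 KD. It did not pass (log2 fold change 0.55 ± 0.30 SE, adjusted p = 0.331), but did so without Yy1 KD replicate 2, its lowest library (log2 fold change 0.92 ± 0.12 SE, adjusted p = 0.0432).

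H2A levels are also lowered by the counting. For 18 of the 19 H2A members a predicted short gene of 129 to 144 bases, annotated as a miRNA on the opposite strand, overlaps the coding sequence, and pairs that touch both were split between them. The short genes held 7.8% to 50% of the pairs recovered for a gene and its partner (median over genes 42.9%). With those pairs given back, an alternative added after the data were seen, the H2A levels were 1.13 to 1.98 times as high (median 1.77). For 16 of the 18 genes the log2 fold change then moved by less than 0.1, no sign changed, and 1 gene was called with either counting. The largest moves were those of the low Hist1h2al, from -0.52 (adjusted p = 0.446) to -0.82 (adjusted p = 0.139), and of H2ac19, from -1.19 to -1.08. H2ac1 then had a log2 fold change of 1.33 ± 0.28 SE (adjusted p = 0.0418) and H2ac20 of -0.61 ± 0.16 SE (adjusted p = 0.0780).

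No H2B gene passed the test. The 16 H2B genes had log2 fold changes from -0.50 to 0.50 (median 0.06) and adjusted p from 0.225 to 0.987, and the interval lay within 2-fold for 13 and within 1.5-fold for 8. H2bc15 was at 925, 1180.2 and 986 TPM in control KD and at 741, 1101 and 1068 TPM in Yy1 KD (log2 fold change -0.10 ± 0.17 SE). H2bc14 was at 789, 943 and 1015 TPM and at 835, 1180.3 and 1156 TPM (log2 fold change 0.20 ± 0.16 SE). Hist1h2bp, with H2bc1 the member of at least 10 TPM with the largest difference in this type, was at 34.6, 27.3 and 50.3 TPM and at 47.1, 67.9 and 43.3 TPM (log2 fold change 0.50 ± 0.25 SE, adjusted p = 0.290). In all 3 genes the groups overlapped. The annotation of H2bc6 reaches base 23621124 of chromosome 13, inside H1f4 (23620629 to 23622558). Pairs on the part of H1f4 that both cover were divided between these members.

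The H3 genes encode the forms H3.1 and H3.2, which are laid down behind the replication fork. The 11 members had log2 fold changes from -0.40 to 0.10 (median -0.07), none passed, and the interval lay within 2-fold for 9 and within 1.5-fold for 7. H3c6 was at 260, 344 and 225 TPM in control KD and at 238, 348 and 298 TPM in Yy1 KD. H3c8 was at 250.1, 263 and 128 TPM and at 152, 163 and 165 TPM (log2 fold change -0.34 ± 0.26 SE, adjusted p = 0.481). The spread of H3c8 came from the control KD libraries, where replicate 3 was low, and without that library it passed (log2 fold change -0.68, adjusted p = 0.0479). H3c11 and H3c1 had log2 fold changes of 0.04 ± 0.12 SE and 0.06 ± 0.13 SE.

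The canonical H4 genes encode the same protein. The 12 members had log2 fold changes from -0.45 to 0.84 (median -0.02), none passed, and the interval lay within 2-fold for 10 and within 1.5-fold for 6. H4c4 was at 618, 873 and 493 TPM in control KD and at 581, 854 and 664 TPM in Yy1 KD (log2 fold change 0.10 ± 0.23 SE). H4c12 varied least among the leading H4 genes, at 673, 753 and 615 TPM and at 643, 682 and 669 TPM (log2 fold change -0.03 ± 0.09 SE, 95% confidence interval -0.24 to 0.18). Hist1h4n and H4c6 had log2 fold changes of -0.08 ± 0.19 SE and -0.20 ± 0.22 SE. The groups overlapped in all 12 genes.

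The linker histones had the narrowest spread. The 6 H1 members had a median SE of 0.10 on the log2 scale, beside 0.20 over all members, and 5 of them were bounded to within 1.5-fold. H1f1 was at 1056, 1172 and 1041 TPM in control KD and at 1052, 1296 and 1167 TPM in Yy1 KD (log2 fold change 0.10 ± 0.10 SE, 95% confidence interval -0.13 to 0.34, adjusted p = 0.586). H1f2 was at 963, 1070.1 and 808 TPM and at 1042, 1024 and 1007 TPM (log2 fold change 0.12 ± 0.11 SE, adjusted p = 0.551). H1f5 had a log2 fold change of 0.07 ± 0.10 SE and the low H1f6 of 0.28 ± 0.51 SE. None of the 6 passed the test.

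The summed levels by type overlapped between the groups for every type. H2A summed to 3426, 4529 and 3329 TPM in control KD and to 3258, 3971 and 4012 TPM in Yy1 KD. H2B summed to 5599, 6887 and 5545 TPM and to 5130.5, 7354 and 6511 TPM. For H3 the sums were 1854, 2269 and 1488 TPM and 1589.5, 1955 and 1819.6 TPM. Those of H4 were 2911, 3524 and 2382 TPM and 2492, 3335 and 2922 TPM, and those of H1 3050.2, 3337 and 2799 TPM and 3159, 3459 and 3202 TPM. As a log2 ratio of the group means, Yy1 KD over control KD, this was -0.01 for H2A, 0.08 for H2B, -0.06 for H3, -0.01 for H4 and 0.10 for H1. Since each library is a pool of morulae, fewer cells that transcribe histone genes and less histone RNA per cell cannot be told apart.

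**Figure D4:**
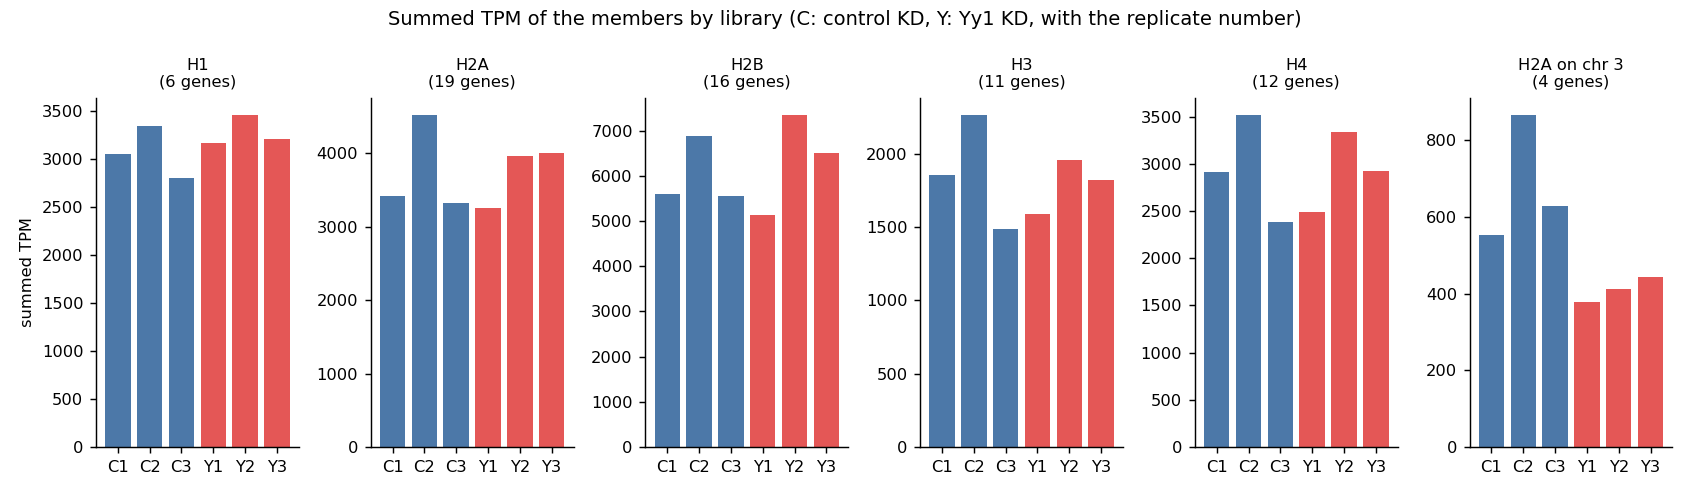
Summed TPM of the members of each histone type, and of the 4 H2A genes on chromosome 3, in the control KD (blue, C1 to C3) and Yy1 KD (red, Y1 to Y3) libraries, each panel on its own axis from 0. The groups overlap for all 5 types, with C2 highest among the controls, and do not overlap for the chromosome 3 H2A genes.

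By their medians, all types moved together between the control KD libraries, and most but not all did so in Yy1 KD. Within control KD, replicate 2 was the highest library for 57 of 64 members and replicate 3 the lowest for 51. Within Yy1 KD, replicate 2 was the highest for 39 and replicate 1 the lowest for 47. The types differed there, since replicate 1 was the lowest for only 2 of 6 H1 members. For H2A, replicate 2 was the highest for only 7 of 19 members. The median deviation of the members from their mean over the 6 libraries, on the log2(TPM + 1) scale, was -0.02, 0.25 and -0.19 in control KD and -0.21, 0.14 and 0.05 in Yy1 KD. The range among the control KD libraries was 0.44, against 0.04 over all genes tested and 0.05 over the 1528 genes above 100 TPM. It was widest for H4 (0.66) and H3 (0.56) and narrowest for H1 (0.20). The 42 members above 100 TPM had a median SE of 0.17, against 0.09 over all tested genes above that level. Control KD replicate 2 is the deepest library (24417789 pairs), but Yy1 KD replicate 2, high in histones, has 12865988 pairs and Yy1 KD replicate 1, low in histones, has 18674188. The part of depth and of the embryos' cell cycle phase in this spread was not tested.

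Histone genes that face each other across a short shared promoter could be compared as pairs. Among the 57 members with a RefSeq promoter there were 9 such H2A and H2B pairs, all on chromosome 13, with starts 164 to 281 bases apart. H2ac14 and H2bc14, H2ac6 and H2bc4, and Hist1h2ap and Hist1h2br also face each other in the gene annotation. In each of these pairs 1 gene has no RefSeq promoter, so they are not among the 9. Within the 9 pairs the log2 fold changes differed by 0.04 to 0.84, and 5 of 9 pairs had the same sign. Among the 9, the smallest gap was that of H2ac15 and H2bc15 (-0.06 and -0.10) and the largest that of H2ac1 and H2bc1 (1.32 and 0.49). Of the pairs outside the 9, H2ac14 and H2bc14 lay further apart, at -0.98 and 0.20. H2ac6 and H2bc4 were at 0.18 and 0.09, and Hist1h2ap and Hist1h2br at -0.21 and -0.50. These gaps were not tested. Members with and without an annotated stem-loop had like medians of the log2 fold change (-0.02 over 42 and -0.00 over 22).

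Histone genes outside the symbol rule were read beside the members. The 4 genes with an older Hist name that it left out, H4f16, H2bu2, H2bu1-ps and H2aw, were chosen by that name alone. H4f16 lies on chromosome 6 and the others on chromosome 11, outside the clusters of the members. Their log2 fold changes were -0.51, -1.05, -1.07 and -0.53, and none passed the test (adjusted p from 0.152 to 0.470). The replication-independent histones, which replace the others outside S phase, were 12 genes, of which 11 were tested, 1 rose and 1 fell. H2az1, which encodes H2A.Z at promoters and enhancers, rose from 395, 357 and 343 TPM to 514, 453 and 487 TPM (log2 fold change 0.41 ± 0.08 SE, adjusted p = 0.0419). Macroh2a1, which encodes a large H2A variant of repressed chromatin, fell from 22.7, 24.5 and 29.9 TPM to 9.45, 6.33 and 8.16 TPM (log2 fold change -1.58 ± 0.17 SE, adjusted p = 0.0109). H3f3a and H3f3b, both coding for H3.3, had log2 fold changes of 0.16 (adjusted p = 0.381) and 0.10 (adjusted p = 0.441). The SE of H2az1 was 0.08, beside a median of 0.17 over the members above 100 TPM.

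Genes related to histone supply and S phase were taken from 5 lists with 113 genes. These were the replication-independent histones above, histone mRNA transcription and processing, histone mRNA decay, histone chaperones and import, and S phase DNA replication. Of the 112 tested, 12 passed (10.7%, beside 6.11% of all genes), 5 as higher and 7 as lower in Yy1 KD. The background includes many genes of low level. With only genes at a mean of at least 5 TPM, 1219 of 10675 genes passed and 12 genes of the lists. The excess over the background therefore depends on the level of the genes compared. In the list of histone mRNA transcription and processing, 1 of 23 rose and none fell. It was Ccne2, the cyclin E2 that activates CDK2, at 27.2, 22.3 and 25.1 TPM in control KD and 44.6, 49.6 and 53.3 TPM in Yy1 KD (log2 fold change 0.96 ± 0.11 SE, adjusted p = 0.0122). Npat and Slbp did not pass, with log2 fold changes of 0.14 ± 0.09 SE and 0.10 ± 0.08 SE.

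In the list of histone mRNA decay, 1 of 15 rose and 1 fell. Exosc10, a nuclease of the nuclear exosome, rose from 50.3, 55.9 and 55.5 TPM to 101.2, 97.7 and 110.4 TPM (log2 fold change 0.92 ± 0.08 SE, adjusted p = 0.00632). Lsm7, a subunit of the ring that binds oligouridylated messages, fell (log2 fold change -0.68 ± 0.15 SE, adjusted p = 0.0466). Of 26 histone chaperones and import factors, 1 rose and 2 fell. Nasp, which keeps the soluble pool of H3 and H4, fell from 217, 199 and 208 TPM to 138, 143 and 136 TPM (log2 fold change -0.58 ± 0.07 SE, adjusted p = 0.0114). The importin gene Ipo9 fell (log2 fold change -0.77 ± 0.11 SE, adjusted p = 0.0167) and Daxx, a chaperone of H3.3, rose (log2 fold change 0.73 ± 0.15 SE, adjusted p = 0.0408). Of 37 genes of S phase DNA replication, 1 rose and 3 fell. Mcm5 and Mcm2, subunits of the replicative helicase, fell (log2 fold changes -0.91 ± 0.08 and -0.71 ± 0.09 SE, adjusted p = 0.00509 and 0.0128). Rrm1, of ribonucleotide reductase, fell (log2 fold change -0.45 ± 0.09 SE, adjusted p = 0.0373), and Gins4, another part of the helicase, rose (log2 fold change 0.40 ± 0.06 SE, adjusted p = 0.0235). With 1 library left out, Exosc10 and Mcm5 kept their call in all 6 fits, Ccne2 and Macroh2a1 in 5, Mcm2 and Nasp in 4, Ipo9 in 2, Lsm7, Rrm1 and Tfap2c in 1 and H2az1, Daxx and Gins4 in none, and each kept its direction. The median log2 fold change was 0.06, 0.07, 0.05 and -0.03 over the tested genes of these 4 lists, in the order given.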

How the data were processed

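The authors prepared libraries with the SMART-Seq stranded kit, trimmed reads with Trim Galore (0.6.7 in the submitters' processing notes), aligned them to mm10 with HISAT2 (2.2.1), removed ribosomal RNA reads and counted pairs on genes with featureCounts (2.0.1) without strand, splitting pairs between overlapping genes and leaving out reads with several places. The values they deposited are TPM per gene, normalized to gene length and to a total of 1000000 per library. Multi-copy histone genes lose the reads that their copies share. The study tested counts, which were not used here, so TPM were tested.

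TPM + 1 was taken to log2 and fitted with limma (3.58.1, R 4.3.3, variance trend, two-sided), over 17353 genes that reached 1 TPM in 3 or more of the 6 libraries. p-values were adjusted by Benjamini-Hochberg over all of them. Fold changes are on this scale, which understates those of low genes. Read pairs were recovered from the TPM and the exon lengths of GENCODE vM21 (55104 of 55364 genes matched, 54312 in the same version). Of the values under 20 pairs, 80.6% to 81.6% per library came out whole within 0.01 pairs, and 89.0% to 90.9% over genes that no other gene overlaps, so depths are estimates. On simulated data the fit called 42 of 100 genes changed by 1 and 78 of 100 changed by 2 on the log2 scale, with 5 false calls among 17153 unchanged genes. Transcripts came from GENCODE vM21, promoters from RefSeq. Other tools were Python 3.11.15, pandas 2.3.3, scipy 1.17.1 and matplotlib 3.10.9.

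The members and the gene lists were chosen with earlier results of these data known. By a fixed rule the text names Yy1, each called member, the 3 highest members of each type, the 2 of each type with the largest difference at 10 TPM or more, those next to the limit of 1 TPM, called genes of the lists and the 3 highest replication-independent histones. Other genes named are those a count, a sequence or an overlap turns on. The alternatives were a pseudocount of 0.1, no filter, a mean of at least 5 TPM, median-ratio and quantile scaling, genes of at least 200 bases, a correction for GC content and length, no variance trend, a robust fit, limma-voom on recovered pairs, a block for the replicate number and the loss of each library in turn. The table has no column beyond the 6 libraries.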

Additional observations from a re-analysis of the deposited data

How the results depend on the processing

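The number of members called was 2 in the reported fit, 0 without the filter on low values, without the variance trend and with the replicate block, 1 with quantile normalization (H2ac1) and 4 with limma-voom on recovered pairs (H2ac1, H2ac21, H2ac20 and H2ac19). Under the filter at a mean of 5 TPM, the pseudocount of 0.1, median-ratio scaling, the GC content and length correction, the robust fit and the added return of pairs to H2A genes it was 2, and with genes of at least 200 bases it was 3. Leaving out 1 library gave 0 to 1 members (H3c8 without control KD replicate 3, H2ac8 without Yy1 KD replicate 2), 75 (without control KD replicate 3) to 418 (without Yy1 KD replicate 1) called genes and 2 to 8 called genes of the pathway lists. The count over all genes was 1061, against 347 without the filter, 514 without the variance trend, 287 with the replicate block and 2165 with limma-voom. The share of calls that were lower in Yy1 KD was 68.6%, and 58.5% under quantile normalization. Of the pathway lists, 12 genes were called, against 7 without the variance trend, 6 with the replicate block and 19 with limma-voom. Same-numbered libraries had correlations of deviations of -0.004, 0.032 and 0.075, all under the 0.1 set for a pairing. Control KD replicates 2 and 3 correlated best with their own number and replicate 1 with Yy1 KD replicate 2 (0.041), so the numbers were not taken to pair the libraries.

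The members' median log2 fold change lay between -0.14 and 0.09 when 1 library was left out. The summed level of H2A depended on the counting. As deposited, its mean over the libraries was 3754 TPM, and with the pairs of the short genes given back 6573 TPM. The H2A sums were then 6005, 7800 and 5882 TPM in control KD and 5797, 6994 and 6957 TPM in Yy1 KD, with overlapping groups. Among named genes with no call, the sign changed for H1f5 under quantile normalization (-0.0078). With 1 library left out the sign changed for H1f5 (-0.0083 to 0.13), H1f6 (-0.18 to 0.71), H2ac15 (-0.18 to 0.12), H2bc15 (-0.20 to 0.082), H2bc18 (-0.29 to 0.016), H3c1 (-0.060 to 0.19), H3c11 (-0.013 to 0.14), H3c15 (-0.53 to 0.11), H3c6 (-0.039 to 0.27), H4c12 (-0.10 to 0.046), H4c4 (-0.089 to 0.32) and Hist1h4n (-0.25 to 0.069), given as the range of log2 fold changes. None of the called genes among the 44 followed through the alternatives changed sign. Depth, copies and 3 libraries a group limit small changes.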
